A study of Mus musculus with 9 samples.

Results

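The O-GlcNAc enzymes were followed across 3 lines of mouse embryonic fibroblasts (MEFs, primary cultures grown from minced embryos) that differ in the gene Oga. The members were all probe sets, the groups of short array oligonucleotides that report 1 transcript, whose platform annotation gives Oga (older name Mgea5), Ogt or Eogt (older name Aer61). The 3 genes, of 18193 genes measured, had 14 of the 45101 probe sets on the array: 6 for Oga, 5 for Ogt and 3 for Eogt. All 14 lay above the 40th percentile of probe set means over the 9 arrays, a log2 value of 6.22 that serves here as a mark of low values. The Oga floxed/+ father came from the C57B1/6 background and the mother from the MMTV-cre strain B6129-Tgn(MMTV-Cre)1Mam, in which Cre is driven by the mouse mammary tumour virus promoter. Heterozygous offspring were intercrossed, and cultures were made from D12.5 embryos, a female wild type (WT), a female heterozygous (Het) and a female knock out (KO) embryo. The labels state no treatment of the cultures beyond growth in DMEM, and whether each culture still carried the Cre transgene is not stated. Each genotype was 1 line, measured on 3 arrays that the design text calls technical replicates. Every n below is therefore a number of arrays of 1 line, every p-value measures the spread between such arrays, and the effect of genotype and any other way in which these embryos differed cannot be told apart. The exons removed from the floxed allele are not given in the sources used here.

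O-GlcNAc is a single sugar, N-acetylglucosamine, attached to serine or threonine of proteins. In the nucleus, cytosol and mitochondria it is added by OGT, the product of the X-linked gene Ogt, and removed by OGA (O-GlcNAcase), the product of Oga, so that the balance of the pair sets how much of the sugar a protein carries. Cells are known to adjust the 2 enzymes to each other, partly through splicing of their transcripts. EOGT, the product of Eogt, adds the same sugar to a different set of targets: it resides in the endoplasmic reticulum and modifies epidermal growth factor-like repeats of secreted and membrane proteins such as the Notch receptors, and it is not related in sequence to OGT. Both transferases draw on UDP-GlcNAc, which the hexosamine pathway makes.

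Array values correlated at r = 0.997 to 0.999 within a line and at 0.989 to 0.996 between lines, and array medians lay between 6.87 and 6.95. RNA integrity was read as the log2 signal of the 3' minus the 5' GAPDH control probe set, with -0.08 ± 0.0097 for WT (SD, n = 3), -0.0020 ± 0.0059 for Het and -0.07 ± 0.032 for KO. The same measure for actin gave 0.072 ± 0.011 for WT, 0.109 ± 0.015 for Het and 0.073 ± 0.019 for KO. The Het mean was the highest at both controls, and the part of this shift in the small Het differences below was not tested. All 11 fibroblast markers lay above the low-value mark, among them the collagen gene Col1a1 (14.95, 14.89 and 14.87 in WT, Het and KO) and the vimentin gene Vim (14.60, 14.63 and 14.71), neither of which was called. Of these 11, however, 6 fell and 0 rose in KO against WT (median -0.15), among them the growth factor receptor gene Pdgfra, with a log2 difference of -2.55, and the matrix gene Dcn, with -0.93; in Het 2 rose and 3 fell. Of all genes, 14.1% were called higher and 20.7% lower in KO against WT, and 7.33% and 12.4% in Het against WT. Markers of other cell types were also detected, at levels that differed between the lines. Of 12 macrophage markers, all above the low-value mark, 12 fell in KO against WT (median log2 difference -1.77) and 9 fell in Het (-0.31). Their summed level, taken on the linear scale and returned to log2, ran from 15.62 to 15.66 in WT, 15.30 to 15.39 in Het and 13.80 to 13.88 in KO arrays. Of 9 skeletal muscle markers, 1 of which had a mean below the low-value mark, 9 rose in KO (median 1.20) and 8 in Het (0.77), and their summed level was 10.93 to 10.98, 11.53 to 11.67 and 12.26 to 12.30. The macrophage and muscle lists move with the lines in opposite directions, and their part in the results below was not tested. In such bulk RNA, fewer cells of a type and less RNA per cell cannot be told apart. Among 5 endothelial markers, 4 of them below the low-value mark, limma called 0 in KO against WT (1 at an unadjusted p below 0.05), while 3 of 5 epithelial and 3 of 5 neural markers rose; in Het against WT 4 of 5 neural markers rose.

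The start regions of Oga and Ogt are shown because both genes had probe sets that fell in the KO line; no measurement here bears on the promoters themselves. RefSeq starts of assembly GRCm38.p6 matched 2 of the 3 genes, Oga with 1 start and Ogt with 2 overlapping windows, of which the upstream one is printed. Each window runs from 250 bases before to 50 bases after the start, 5' to 3' on the gene's strand, at chr19:45783504-45783803 (minus strand) for Oga and chrX:101639801-101640100 (plus strand) for Ogt. Capitals mark matches on either strand to the GC box GGGCGG or to GCGCATGC, the core of the motif of the factor NRF1.
Oga: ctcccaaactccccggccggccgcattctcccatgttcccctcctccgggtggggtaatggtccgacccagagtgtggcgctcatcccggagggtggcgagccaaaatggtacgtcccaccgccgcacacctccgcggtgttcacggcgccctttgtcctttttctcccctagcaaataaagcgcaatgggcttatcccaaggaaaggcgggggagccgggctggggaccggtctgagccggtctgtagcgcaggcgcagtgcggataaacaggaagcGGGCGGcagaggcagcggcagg
Ogt: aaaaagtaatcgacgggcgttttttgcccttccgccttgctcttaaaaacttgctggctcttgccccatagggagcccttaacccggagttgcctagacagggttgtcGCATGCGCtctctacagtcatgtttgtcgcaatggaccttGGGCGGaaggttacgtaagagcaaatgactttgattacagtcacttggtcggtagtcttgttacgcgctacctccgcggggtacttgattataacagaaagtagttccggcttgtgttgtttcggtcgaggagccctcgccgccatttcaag
The Oga window holds 1 GC box, 28 bases after the start, and its G and C content is 65.3%. The Ogt window holds an NRF1 core 142 bases before the start and a GC box 102 bases before it, which do not overlap, with a G and C content of 51%. Over 32851 RefSeq windows of 300 bases the median content was 52.7%, 35.7% held a GC box and 2.71% held the NRF1 core. The CCAAT box CCAAT (37.4% of windows), the TATA box TATAAA (13.6%) and the cAMP response element TGACGTCA (1.79%) were searched on both strands and matched neither printed window.

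Oga was compared first, since its loss defines the lines. All 6 of its probe sets fell in the KO line, each by more than 2-fold, and 5 of 6 fell in the Het line. The comparison asked how much Oga signal was left when 1 or both copies were lost. A probe set was called when its limma p-value, adjusted by Benjamini-Hochberg over all 45037 probe sets without controls, was below 0.05, and rose, fell and changed are kept for called probe sets. Of all probe sets, 28.9% were called in KO against WT: 14.8% lower, of which those past 2-fold make up 1.21% of all. In Het against WT 10.9% of all probe sets were called lower, 0.151% of all past 2-fold, and in KO against Het, where all 6 Oga probe sets were called lower, 13.5%. Since the line is defined by this gene, its fall in KO checks the labels and is no finding of its own.

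**Figure D1:**
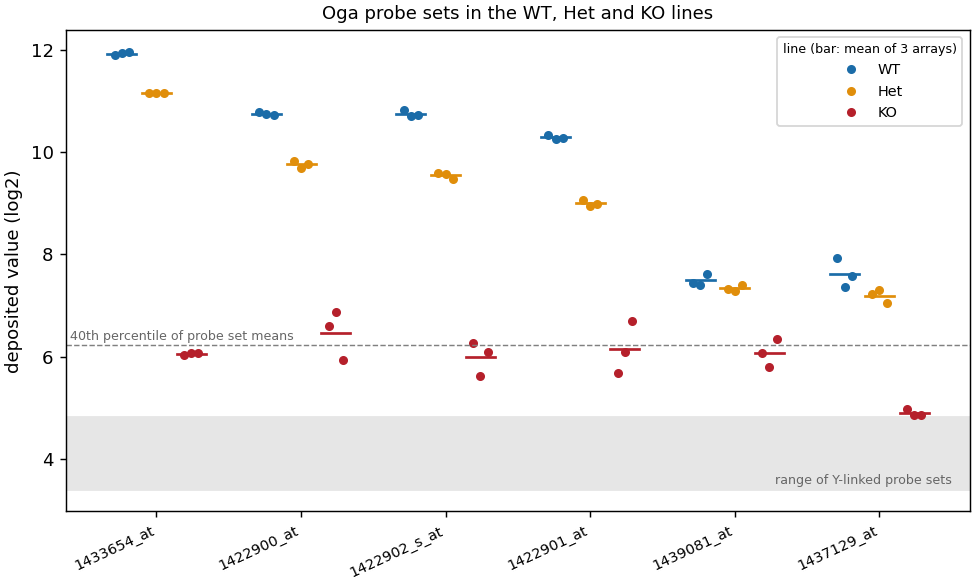
Deposited log2 values of the 6 Oga probe sets (horizontal axis) on each of the 3 arrays of the WT, Het and KO lines, with a bar at the mean of 3 arrays; the dashed line is the low-value mark of 6.22 and the grey band the range of 9 probe sets of Y-linked genes. At every probe set the KO arrays lie below all WT and Het arrays, and at 1433654_at the 3 Het arrays coincide at 11.16.

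Probe set 1433654_at read 11.89, 11.93 and 11.95 in the WT arrays, 11.16 in each of the 3 Het arrays and 6.03, 6.08 and 6.08 in the KO arrays. The lines were fully separated, running downwards from WT through Het to KO. On the linear scale the KO line held 1.72% of the WT value (95% interval 1.61% to 1.84%), and the Het line 58.9% (55.0% to 62.9%). The 3 Het values are equal in the deposited table to every digit given, so the SD of that group is 0. The error of its differences comes from the spread of the WT and KO arrays (SD 0.033 and 0.026) together with the spread that limma shares across probe sets.

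The 3 probe sets annotated with the same RefSeq transcript of Oga gave the largest Het differences. At 1422901_at the WT arrays read 10.34, 10.26 and 10.27, the Het arrays 9.07, 8.94 and 8.99 and the KO arrays 5.68, 6.09 and 6.70. The Het minus WT difference was -1.29 ± 0.19 (SE, n = 3 arrays a line, limma adjusted p = 0.00106) and the KO minus WT difference -4.13 ± 0.19 (adjusted p = 9.42e-08). Het thus held 40.8% of the WT value here (30.4% to 54.8%). At 1422902_s_at the Het arrays ran from 9.47 to 9.60 against 10.70 to 10.82 in WT, a difference of -1.20 ± 0.13, and KO was lower by -4.76 ± 0.13. The third, 1422900_at, gave -0.99 ± 0.18 for Het, just short of 2-fold, and -4.27 ± 0.18 for KO. In all 3 the KO arrays scattered more than the others: the SD was 0.33 to 0.51 in KO against 0.033 to 0.067 in WT and Het.

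The remaining pair of Oga probe sets had lower WT values and smaller differences. Probe set 1439081_at read 7.45, 7.40 and 7.62 in WT, 7.33, 7.29 and 7.41 in Het and 6.07, 5.81 and 6.34 in KO arrays. The WT and Het arrays overlapped here, and the difference of -0.15 ± 0.11 was not called (limma adjusted p = 0.392, 95% interval -0.40 to 0.10), which leaves room for a Het value between 75.5% and 107% of WT. KO fell by -1.42 ± 0.11. Probe set 1437129_at read 7.92, 7.36 and 7.57 in WT, 7.23, 7.30 and 7.06 in Het and 4.99, 4.87 and 4.87 in KO arrays. Its Het difference of -0.43 ± 0.12 was called at adjusted p = 0.0308, but not in the fit of the 2 lines alone (0.0692), with low values raised to the mark (0.101), or without WT replicate 1 (-0.27), WT replicate 3 (-0.45), Het replicate 1 (-0.44) or Het replicate 3 (-0.36). With low values raised to the mark, its KO difference shrank from -2.71 to -1.39.

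The 6 probe sets thus did not give 1 size of the Oga difference. Log2 differences ran from -5.86 to -1.42 in KO against WT (median -4.20) and from -1.29 to -0.15 in Het against WT (median -0.88). Averaged over the 6 probe sets, the KO difference was -3.86, compared with -5.86 at 1433654_at alone. The margin of 1433654_at over the mean of the other 5 came to 2.54 ± 0.11 for WT (SD, n = 3), 2.59 ± 0.036 for Het and 0.14 ± 0.074 for KO in log2 units. WT and Het did not separate (two-sided exact permutation test, p = 0.7; the smallest p that 3 against 3 arrays allow is 0.1). In KO, where 5 of the 6 means lay under the low-value mark, the margin is given as a value only.

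How far the KO values lie above an absent transcript was read from Y-linked genes, which female lines lack. Their 9 probe sets, of 3 genes, read 3.41 to 4.83 over all arrays. The KO means of the Oga probe sets ran from 4.91 to 6.47, all above that range, and 5 of the 6 lay under the low-value mark. Signal without a matching transcript differs between probe sets, so the size of the KO differences holds for the deposited values only, and whether any Oga transcript remained was not tested.

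Ogt, which encodes the enzyme that opposes OGA, differed far less between the lines than Oga, and its probe sets did not move as 1. In the KO line 2 of 5 Ogt probe sets fell against WT, 0 rose and 3 were not called, beside 28.9% called among all probe sets. In the Het line limma called 0 of 5, where 21% of all probe sets were called; all 5 had an unadjusted p below 0.05, with 4 lower and 1 higher than WT. No Ogt probe set reached 2-fold in any comparison.

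The clearest difference was at 1460631_at, the Ogt probe set with the highest values. Its arrays read 11.29, 11.26 and 11.31 in WT, 11.20, 11.15 and 11.15 in Het and 10.998, 10.85 and 10.81 in KO. All 3 lines were separated without overlap, running downwards from WT through Het to KO. KO held 75.6% of the WT value on the linear scale (95% interval 69.3% to 82.4%; limma adjusted p = 3.21e-04) and 82.4% of the Het value (75.6% to 89.9%; adjusted p = 0.00401). Het stood at 91.7% of WT, which was not called (adjusted p = 0.147, 95% interval of the log2 difference -0.25 to -0.00041). Averaged over the 5 probe sets, the KO difference from WT shrank from -0.40 to -0.14 (adjusted p = 0.0434) and that from Het from -0.28 to -0.064, which was not called (adjusted p = 0.363).

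The 3 Ogt probe sets that share 1 annotated sequence did not separate all lines. At 1451738_at the WT arrays read 10.33, 10.24 and 10.22, the Het arrays 10.12, 10.08 and 10.06 and the KO arrays 10.36, 10.11 and 10.18. Here Het lay below WT and KO overlapped both. At 1425516_at the ranges were 10.48 to 10.57 in WT, 10.34 to 10.47 in Het and 10.38 to 10.51 in KO, with Het below WT and KO overlapping both. At 1425517_s_at they were 10.14 to 10.22, 9.97 to 10.04 and 9.93 to 10.10. For this last probe set KO was lower by -0.18 ± 0.056 (limma adjusted p = 0.0380), a call that was lost with median centring (-0.16), in the fit of the 2 lines alone (adjusted p = 0.0702) and without WT replicate 1 (-0.15), WT replicate 2 (-0.18), WT replicate 3 (-0.20), Het replicate 2 (adjusted p = 0.0574), KO replicate 2 (-0.16) or KO replicate 3 (-0.14). The KO differences of the other two were -0.08 (95% interval -0.20 to 0.04) and -0.05 (-0.19 to 0.10).

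Het values of the 4 Ogt probe sets with the higher readings were all a little below WT, by log2 differences from -0.18 to -0.13, with no overlap between arrays. The same separation was seen at 36.8% of all probe sets in this comparison, and 0 of the 4 were called, with adjusted p-values from 0.0603 to 0.147. The call at 1425517_s_at (Het minus WT, -0.17) turned on the setting: adjusted p was 0.0287 with median centring, 0.0298 without the lowest 40% of probe sets, 0.0488 in the fit of the 2 lines alone, 0.0479 with the replicate block, 0.0215 with a trended prior and 0.0374 without KO replicate 1. For 1451738_at it was 0.0438 with median centring, 0.0347 with a trended prior and 0.0411 without KO replicate 1. The lowest Ogt probe set, 1436780_at, read 8.11, 8.15 and 7.88 in WT, 8.11, 8.40 and 8.31 in Het and 8.11, 7.997 and 8.09 in KO arrays. Its lines overlapped, the first array of each line held the same deposited value, and Het was higher by 0.23 ± 0.089 without a call (adjusted p = 0.1003). It was called without Het replicate 1, at 0.31 against WT and, for KO minus Het, at -0.29 (KO minus Het was -0.21 with all arrays).

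The disagreement among Ogt probe sets was itself compared between lines. The margin of 1460631_at over the mean of the other 4 came to 1.53 ± 0.067 for WT (SD, n = 3), 1.47 ± 0.043 for Het and 1.20 ± 0.035 for KO in log2 units. It was smaller by 0.33 on the log2 scale in KO than in WT, with no overlap (two-sided exact permutation test, p = 0.1, the smallest that 3 against 3 arrays allow), and in Het the WT range was overlapped (exact p = 0.3). Since Ogt is X-linked, Xist, whose RNA covers the silenced X, was read beside it: 13.45 in WT, 13.43 in Het and 13.15 in KO at its highest probe set. Xist fell in KO against WT (-0.31, limma adjusted p = 0.00194) and against Het (-0.29, adjusted p = 0.00318), as 1460631_at did, and its part in the Ogt difference was not tested. The 616 measured genes of the X chromosome had a median difference of 0.0033 in KO against WT, and 33.4% of them were called, compared with 34.8% of all 18193 genes. In Het against WT 33 of the 616 were called higher and 97 lower, which is 21.1% called beside 19.8% of all genes. By direction, 7.33% of all genes were called higher and 12.4% lower. The Het median was -0.028 on the X chromosome and -0.0048 over all genes, and the part of this in the Ogt values was not tested.

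**Figure D2:**
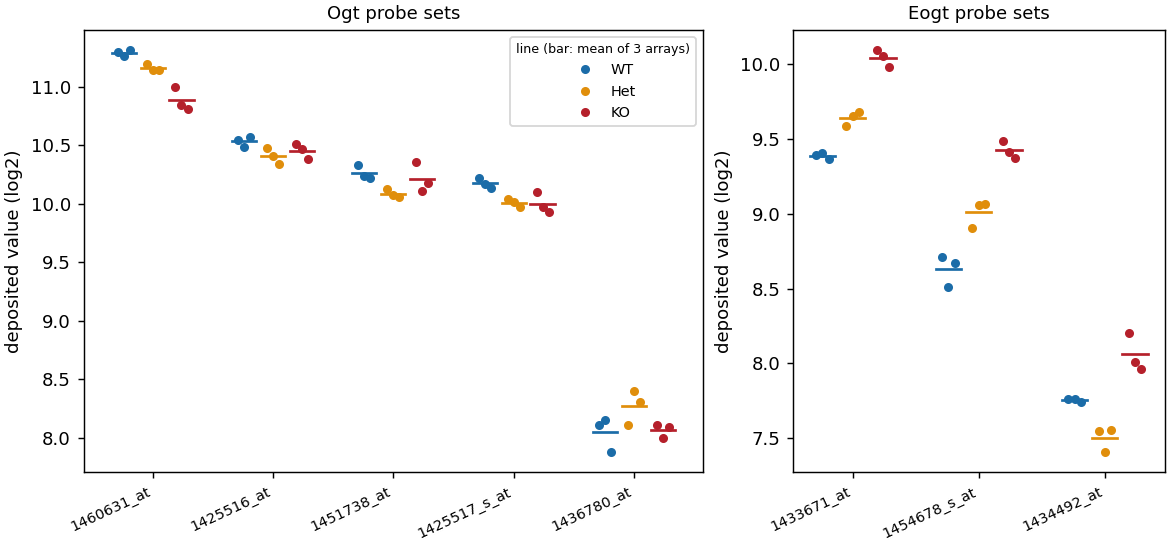
Deposited log2 values of the 5 Ogt probe sets (left) and the 3 Eogt probe sets (right) on each array of the WT, Het and KO lines, with a bar at the mean of 3 arrays. The 3 lines separate at 1460631_at alone among the Ogt probe sets, while all 3 Eogt probe sets are highest in the KO arrays.

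Eogt, the transferase gene of the secretory pathway, went the other way. All 3 Eogt probe sets rose in the KO line against WT, and all 3 rose against Het, beside 14.2% and 13.1% of all probe sets called higher in these comparisons. The differences were between 1.23-fold and 1.73-fold, so none reached 2-fold. In the Het line the 3 probe sets were all called, 2 higher and 1 lower than WT, where 10.1% of all probe sets were called higher.

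At 1433671_at the WT arrays read 9.39, 9.41 and 9.36, the Het arrays 9.59, 9.65 and 9.68 and the KO arrays 10.09, 10.05 and 9.98. The lines did not overlap and ran in the order WT, Het, KO, the reverse of Oga. KO was 1.57-fold above WT (log2 difference 0.66 ± 0.049, SE, limma adjusted p = 3.55e-06), Het 1.19-fold above WT (0.25 ± 0.049, adjusted p = 0.00502) and KO 1.32-fold above Het (0.40 ± 0.049, adjusted p = 1.68e-04). Probe set 1454678_s_at, annotated with the same sequence, followed the same order with 8.71, 8.51 and 8.67 in WT, 8.91, 9.06 and 9.06 in Het and 9.49, 9.41 and 9.37 in KO arrays. Its KO line stood at 173% of WT (156% to 193%) and its Het line at 130% (117% to 144%).

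Probe set 1434492_at, annotated with a different sequence, kept the KO difference but not the order. It read 7.76, 7.76 and 7.74 in WT, 7.55, 7.41 and 7.55 in Het and 8.21, 8.01 and 7.96 in KO arrays. KO was again highest (0.30 ± 0.069 over WT, limma adjusted p = 0.00717), but Het was below WT (-0.25 ± 0.069, adjusted p = 0.0259), with no overlap. The Het call was lost with low values raised to the mark (adjusted p = 0.0588) and without WT replicate 1 (-0.25), WT replicate 2 (-0.25), WT replicate 3 (-0.26) or Het replicate 2 (-0.20). Averaged over the 3 probe sets, Eogt was not called in Het against WT (0.13, adjusted p = 0.0945). The margin of 1433671_at over the mean of the other 2 came to 1.19 ± 0.068 for WT, 1.38 ± 0.031 for Het and 1.30 ± 0.048 for KO (Het against WT, two-sided exact permutation p = 0.1, the smallest possible; KO against WT, exact p = 0.2). Skeletal muscle markers rose and macrophage markers fell in the same lines, as given above, and their part in the Eogt difference was not tested.

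**Figure D3:**
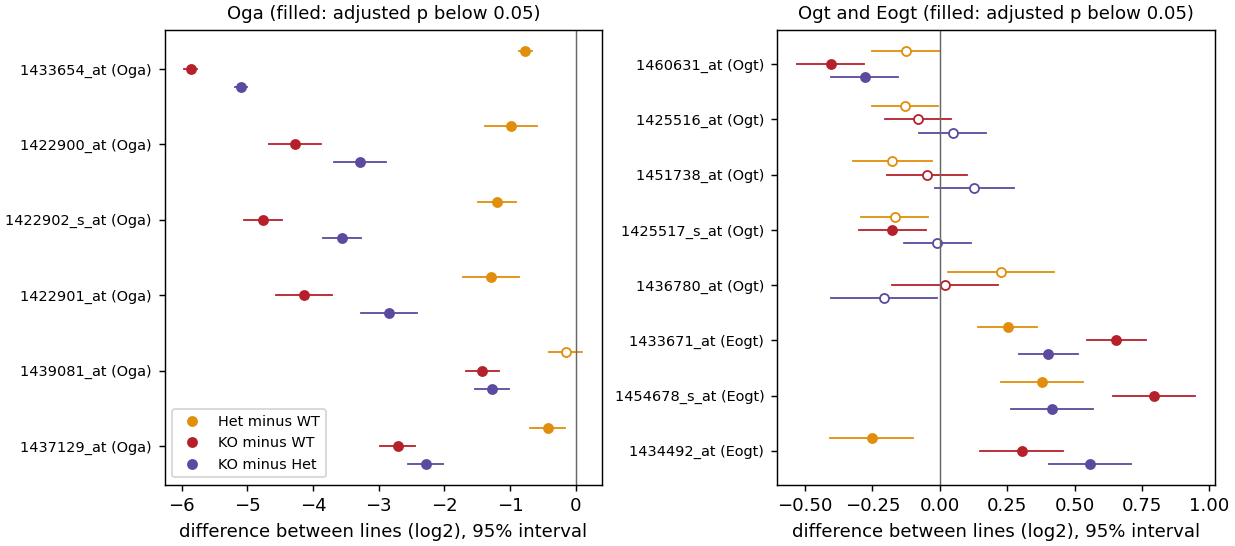
Log2 differences between lines with 95% intervals from limma for the 6 Oga probe sets (left) and the 5 Ogt and 3 Eogt probe sets (right, on an expanded scale); filled points are called at adjusted p below 0.05. Oga lies to the left of 0 in all comparisons, Eogt to the right except for 1434492_at in Het minus WT, and Ogt between -0.40 and 0.23.

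Set side by side, the 3 genes differed in direction and in size. Of the 14 probe sets, 11 were called in KO against WT (8 lower, 3 higher), 8 in Het against WT (6 lower, 2 higher) and 10 in KO against Het (7 lower, 3 higher). Arrays of the 2 lines did not overlap at 11, 12 and 10 of the 14, where the same was seen at 40.7%, 36.8% and 39.5% of all probe sets. Oga, whose loss defines the lines, made up 6, 5 and 6 of the called probe sets and 6, 5 and 6 of those without overlap. Without overlap were 2, 4 and 1 of the 5 Ogt probe sets and 3, 3 and 3 of the 3 Eogt probe sets. The pooled counts are therefore no result about the enzymes as a group. In KO against Het 26.6% of all probe sets were called. The 3 comparisons share arrays and are not independent of each other. The median size of the difference in KO against WT was 0.12 over all probe sets, regardless of direction, so 3 Ogt differences (-0.08, -0.05 and 0.02) were smaller than that of the median probe set and the Eogt differences of 0.30 to 0.79 were larger.

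The genes whose values followed each enzyme most closely over the 9 arrays were found by Pearson correlation with its highest probe set, among 12961 other genes above the low-value mark. The 9 points come from 3 lines, so such a correlation mainly reflects 3 line means and is given as a description. For Oga these were the lysozyme gene Lyz2 (r = 0.9997), the matrix gene Tgfbi, the scavenger receptor gene Stab1, the coagulation factor gene F13a1 and Mfsd12 (r = 0.998). Of these Lyz2 is in the list of macrophage markers, and the others were not assigned to a cell type. The KO differences of these genes, from -2.94 in F13a1 to -1.17 in Mfsd12, were smaller than that of Oga. The macrophage markers had median differences of -1.77 in KO and -0.31 in Het. Tgfbi (-2.01 and -0.30), Stab1 (-2.21 and -0.27) and F13a1 (-2.94 and -0.50) fell in both lines too, while Mfsd12 was not called in Het (-0.13). The part of macrophages in this likeness to Oga was not tested. For Ogt they were Fras1 (r = 0.996), a basement membrane gene, then Cep85, Hdgfl3, Nxpe4 and Fam111a (r = 0.988), with KO differences from -1.04 in Nxpe4 to -0.33 in Cep85. For Eogt they were the collagen receptor gene Ddr1 (r = 0.997), Tagln, a smooth muscle actin-binding protein gene, the adhesion gene Mcam, the growth factor gene Tgfb3 and Csrp1 (r = 0.995), with KO differences from 0.47 in Tagln to 1.35 in Mcam. An r above 0.95 was reached by 832 genes for Oga, 320 for Ogt and 452 for Eogt.

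Genes next to the 3 members were read to see whether the differences extended along the chromosome. Among the 5 nearest measured genes on each side of Oga on chromosome 19, 1 of 10 was called in KO against WT and 0 of 10 in Het against WT (limma, 0 also at an unadjusted p below 0.05), compared with 34.8% and 19.8% of all genes. That 1 was Fbxw4, an F-box protein gene, which fell by 0.33 in the KO line (limma adjusted p = 6.91e-04). The nearest measured neighbours of Oga, the growth factor gene Fgf8 (-0.05) and the potassium channel regulator gene Kcnip2 (0.16), were not called. Both had means below the low-value mark in every line, as had some other neighbours of Oga, Ogt and Eogt. At genes with such low values, a missing call cannot decide whether a difference extended to them. Around Ogt, 2 of 10 were called in KO: Itgb1bp2, a muscle integrin-binding protein gene, rose by a log2 difference of 0.40 in KO and 0.39 in Het, and Nhsl2 fell by 0.54 in KO. Taf1 (0.03) and Cxcr3 (-0.07), on either side of Ogt, were not called. Around Eogt 2 of 10 were called in KO, the FERM-domain gene Frmd4b (-1.14) and Mitf, a transcription factor gene of pigment cells (-0.73), both lower while Eogt was higher. The Frmd4b difference was -0.06 and not called (adjusted p = 0.583) at its highest probe set without an s, x or a mark. In Het, Uba3 (-0.59), a subunit gene of the NEDD8-activating enzyme, Mitf (-0.42) and Suclg2 (-0.22) fell.

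**Figure D4:**
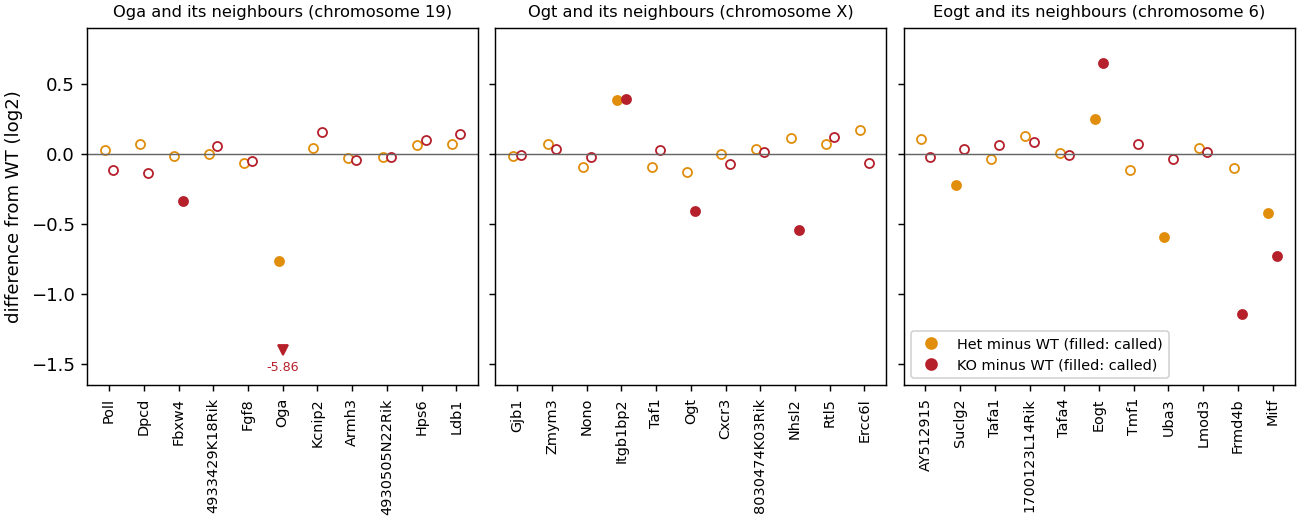
Log2 differences of Het and KO from WT for Oga, Ogt and Eogt (centre of each panel, highest probe set) and the 5 nearest measured genes on each side in chromosome order; filled points are called at adjusted p below 0.05. The KO value of Oga, -5.86, lies off the axis and is marked by a triangle, while its 10 neighbours lie between -0.33 and 0.16 in KO.

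The sugar donor of both transferases, UDP-GlcNAc, is made and recycled by a known set of enzymes, and 14 of 15 listed genes of synthesis, salvage and transport were measured. In KO against WT, 3 rose, 7 fell and 4 were not called (median -0.09), where 14.1% of all genes were called higher and 20.7% lower. The mutase gene of the synthesis route, Pgm3, rose by a log2 difference of 0.43. Of the salvage genes, the GlcNAc kinase gene Nagk fell by 0.44 and Renbp fell by 0.60, and Uap1l1, related to the last enzyme of synthesis, fell by 0.67. In Het against WT 0 rose and 8 fell (median -0.23), beside 7.33% called higher and 12.4% lower. None of these genes reached 2-fold in either comparison.

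Among the genes that act with EOGT on epidermal growth factor-like repeats, none was called higher in the KO or the Het line against WT. Of 10 measured, 0 rose and 6 fell in KO (median -0.16), and 0 rose and 3 fell in Het (median -0.09), where 20.7% and 12.4% of all genes were called lower. The xylosyltransferase gene Xxylt1 fell by 0.45, the fringe gene Mfng fell by 0.36, the O-fucosyltransferase gene Pofut1 fell by 0.31 and the xylosyltransferase gene Gxylt1 fell by 0.18, a call lost with median centring (-0.17), with the replicate block (adjusted p = 0.0511) and without WT replicate 2 (-0.16), WT replicate 3 (-0.19), KO replicate 2 (-0.16) or KO replicate 3 (-0.17). With median centring, or without WT replicate 2, WT replicate 3 or KO replicate 2, 3 of the 10 were called in KO. Among 13 Notch receptors, ligands and targets 5 rose and 2 fell in KO (median 0.13), and 0 fell and 3 rose in Het (median 0.07). In either direction, 34.8% of all genes were called in KO and 19.8% in Het, so the Het count of 3 of 13 is near that share. By direction, 14.1% of all genes were called higher and 20.7% lower in KO. In Het these shares were 7.33% and 12.4%, and all 3 Het calls of the list were higher. The targets Heyl (0.62 in KO, 0.61 in Het) and Hes1 (0.38 in KO) rose and the receptor gene Notch2 fell by 0.34. Another target, Hey1, fell by 0.20 in KO (limma adjusted p = 0.0404), with overlapping arrays, so the targets did not all move in the same direction. Hey2 (0.50 in KO) had means of 4.18 in WT and 4.69 in KO, below the low-value mark, and its difference was gone (0.00) with low values raised to it.

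Genes of proteins known to work with OGT or OGA, among them the host cell factor gene Hcfc1, the TET genes and the trafficking adaptors Trak1 and Trak2, numbered 13. In KO, 2 rose, Hcfc1 (0.17) and the phosphatase subunit gene Ppp1r12a (0.16), 0 fell and 11 were not called. Of all genes 34.8% were called in this comparison. The count of 2 became 0 with the replicate block or without WT replicate 3, and 1 with quantile normalization, in the fit of the 2 lines alone, with no s, x or a probe sets, or without WT replicate 1, WT replicate 2, Het replicate 2, Het replicate 3 or KO replicate 2. Both named calls were lost with the replicate block and without WT replicate 2 (Hcfc1 adjusted p = 0.0723, Ppp1r12a 0.0719), WT replicate 3 (0.0827 and 0.0854) or KO replicate 1 (0.0873 and 0.135), so where the count was above 0 there, other genes of the list made it. The count became 4 without the lowest 40% of probe sets and 5 with gene means or raised low values. Other enzymes that remove N-acetylglucosamine from glycans or act on related chains were lower rather than higher: of 6 measured, 1 rose and 4 fell in KO (median -0.30). The hyaluronidase gene Hyal2 rose by a log2 difference of 0.17. The lysosomal gene Naglu fell by 1.13 in KO, past 2-fold in a direction in which 1.91% of all genes were, and Hexdc fell by 0.40, Ctbs by a log2 difference of -0.35 (-0.13 and not called with the mean of its probe sets) and Hexa by one of -0.22. In Het 1 rose and 3 fell, where 7.33% of all genes were called higher and 12.4% lower. The 1 that rose in Het was Hexdc (0.22, limma adjusted p = 0.0386), which fell in KO. That Het call was lost with median centring (0.19) and in other settings. The count of calls in Het ran down to 1 with the replicate block or without WT replicate 2 or Het replicate 2, and to 2 in the fit of the 2 lines alone or without WT replicate 1, WT replicate 3, Het replicate 1, Het replicate 3 or KO replicate 1. Macrophages are rich in lysosomes, and the summed macrophage marker level, 15.62 to 15.66 in WT and 13.80 to 13.88 in KO arrays, fell in the same lines; its part in these differences was not tested.

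**Figure D5:**
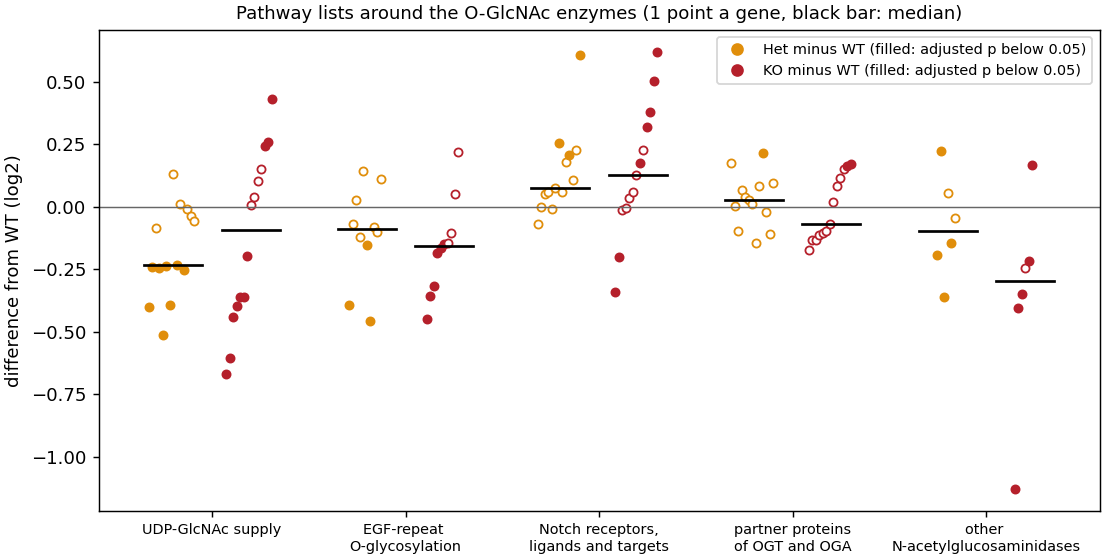
Log2 differences of Het and KO from WT for the genes of 5 lists around the O-GlcNAc enzymes, 1 point a gene at its highest probe set, filled where called at adjusted p below 0.05, with a black bar at the list's median. The list medians lie between -0.30 and 0.13, and Naglu, at -1.13 in KO, is the lowest point.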

How the data were processed

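Per the labels' protocols, Trizol-extracted, DNase-treated total RNA of the 3 MEF lines was biotin-labelled and put on 9 arrays. The authors deposited log2 values of 45101 probe sets, 1 column per array; that they are base 2 was inferred from values of 3.25 to 15.15. GCOS and Partek are named in the submitters' processing notes, and the background correction, normalization and summarization are not given in the sources used here. Values were used as deposited, without the 64 control probe sets. Symbols came from the platform annotation (34945 probe sets with 1 symbol, 932 with several, 9160 with none), and 18032 of 18193 genes matched the RefSeq gene table of GRCm38.p6, used for chromosome order.

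Lines were compared with limma 3.58.1 (lmFit and eBayes, R 4.3.3) over all 45037 probe sets, with no filter, 1 mean per line and p-values adjusted per comparison. A gene was represented by its probe set with the highest mean. Disagreement between probe sets was tested with exact permutation tests. Genes were named by rule: all member probe sets, up to 4 called genes of each list by size in KO against WT (2 where none was called), the 5 neighbours on each side and the 5 genes most alike each member; other genes named were chosen after their values were seen. The members and lists were chosen with earlier results of these data known. The fit was first tested on simulated data, in which far fewer probe sets differed than were called here. It called 6 of 50 simulated log2 differences of 0.25, 36 of 50 of 0.5 and 48 of 50 of 1. Among unchanged probe sets it called 8 of 44837. A missing call at a small difference is therefore no sign that the lines were equal. Arrays give no read depth, and their number limits the precision. Alternatives covered normalization, filters, the prior, fits of 2 lines, a replicate block, other choices of probe sets and each array left out. Figures were drawn with matplotlib 3.10.9.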

Additional observations from a re-analysis of the deposited data

How the results depend on the processing

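Over 16 to 18 alternatives per probe set, all KO calls of Oga and Eogt and all Het calls of the 4 Oga probe sets other than 1437129_at kept their direction and their side of the threshold. The next ranges are for 1433654_at of Oga and 1433671_at of Eogt, and include the setting that takes the mean of a gene's probe sets. The KO difference of Oga ran from -5.88 to -3.86 and the Het difference from -0.80 to -0.75. The KO difference of Eogt ran from 0.58 to 0.69. The ends of -3.86 and 0.58 are means over all probe sets of the gene and no values of the named probe sets. With the mean of a gene's probe sets, Ogt was not called in KO against Het (-0.064) and Eogt not in Het against WT (0.13). The number of called member probe sets ran from 8 to 11 in KO against WT, 6 to 10 in Het against WT and 8 to 11 in KO against Het. Signs turned, with a call on 1 side, for the neighbour Nono in KO without s, x or a probe sets (0.23), for Uba3 in KO (0.33) and for Cep85 in Het (0.15) with gene means. These settings read another probe set of the gene or the mean of all its probe sets. The turns thus reflect disagreement between probe sets of 1 gene, and why those differ was not tested. For arrays with the same replicate number, correlations of their deviations ran from -0.11 to 0.23 over 9 pairs. For different numbers they ran from -0.17 to 0.13 over 18 pairs, and the highest value, 0.23, was that of WT replicate 1 with KO replicate 1. In 4 of 18 cases an array was most like its own number in another line. With the replicate block 11, 9 and 10 member probe sets were called in KO against WT, Het against WT and KO against Het, and 12612, 8927 and 11459 of all probe sets; 1 of 42 member calls differed, 1425517_s_at in Het against WT. With 1 line per genotype, no alternative bears on the spread between embryos.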
